A study of Mus musculus with 14 samples.

Results

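Thymocytes that had lost both Ezh2 and p53 were compared with thymocytes that had lost p53 alone, stage by stage, to see what Ezh2 loss adds to p53 loss before leukemia. The comparison used 6 of the 14 one-colour Agilent arrays of the series: 3 double-deleted (Ezh2Δ/Δp53Δ/Δ) and 3 p53-deleted (p53Δ/Δ) arrays, 1 each for the DN1, DN2 and DN3 stage of CD4-CD8- cells, which are CD44+CD25- at the start, gain CD25 at DN2 and lose CD44 at DN3. Arrays were chosen by their labelled genotype, stage and non-leukemic state, with no measured value used. Bone marrow from C57BL/6 mice carried Cre-ERT2, a recombinase that tamoxifen switches on, together with floxed p53 or with floxed p53 and floxed Ezh2. It was given to CD45.1+ wild-type hosts after a lethal dose of radiation, and the hosts keep their own thymic stroma. The genes were deleted 4 weeks after transplantation and the cells were sorted from the thymus at 3 months, although one treatment note of the labels speaks of bone marrow cells. Arrays of wild-type cells (Cre-ERT2 alone, 3 arrays) and of cells that had lost Ezh2 alone (Ezh2Δ/Δ, 3 arrays) entered the fit and are given where a result is read against them; the 2 leukemic arrays stayed out of it. Each genotype and stage had 1 array, and the labels do not say whether the stages of a genotype came from different mice or how many mice a sample held. A p-value therefore sets the mean difference over the 3 stages against the scatter over stages in all genotypes of the fit. It cannot be read as a measure of the spread between mice.

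Ezh2 is the catalytic subunit of Polycomb repressive complex 2 (PRC2), which methylates lysine 27 of histone H3 and holds developmental genes silent. Its classic targets are genes with CpG-rich promoters that act in other lineages or in the embryo, such as the Hox clusters. p53 (gene Trp53) is a transcription factor that stops the cycle or triggers death after DNA damage, and it acts downstream of Cdkn2a, a Polycomb target whose Arf product stabilises p53. DN1, DN2 and DN3 are successive steps of early T cell development, in which multipotent progenitors commit to the T lineage under Notch signalling and rearrange the T cell receptor β gene.

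Genotype and slide were not separable in this comparison. The 3 p53-deleted arrays lay on slide 2 with the 3 Ezh2-deleted arrays, and that slide was scanned on another date with another version of the probe grid. The double-deleted DN1 array lay on slide 3 and the double-deleted DN2 and DN3 arrays on slide 1, together with the 3 wild-type arrays. The raw signal at the 75th percentile was 90.58 to 141.2 on the p53-deleted arrays and 505 to 589.1 on the double-deleted arrays, and 43.65% to 45.56% against 49.75% to 50.37% of probes were well above background. Every level below is log2 of the processed signal minus log2 of that array's 75th percentile, so 0 marks the 75th percentile and the lowest signals well above background lay between -4.16 and -3.33 on these 6 arrays. No probe was saturated. A level below that range is a reading of background, and where a genotype was not well above background on any of its 3 arrays the difference is given as a lower limit ("at least N-fold"). That limit is the brighter genotype's mean against the mean, over the dimmer arrays, of the lowest signal well above background or the probe's own signal, whichever is higher.

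Across the 27047 features tested, 8446 differed between double-deleted and p53-deleted cells at an adjusted p under 0.05 (31.2% of all tested; limma with genotype and stage terms on 12 arrays, Benjamini-Hochberg adjustment). Of these, 4321 (16.0%) were higher and 4125 (15.3%) lower in double-deleted cells, and 8427 had the same sign at all 3 stages. The count fell to 4758 without the double-deleted DN2 array and 5255 without the double-deleted DN3 array, and the count of lower features ranged from 1831 to 2614 without the double-deleted DN1, DN2 or DN3 or the p53-deleted DN3 array. The median difference over all features was -0.12. With normexp background correction the split was 3933 higher and 11971 lower and the median -0.40. In 59.7% of the features called higher, all 6 arrays of slide 2 lay below all 6 other arrays, against 10.8% of all features tested. In 35.4% of those called lower, all 6 lay above the others, against 7.49% of all tested. For those features the genotype and the slide cannot be told apart. A second fit, with terms for stage, Ezh2 deletion, p53 deletion and slide, gave the effect of Ezh2 deletion averaged over cells with and without p53, because each p53 state then has 1 Ezh2-deleted genotype and 1 Ezh2-intact genotype. In that fit the slide takes the place of the interaction of both deletions, so a gene that is high in double-deleted cells alone gets a smaller value by construction. Slide 3 held the double-deleted DN1 array alone, so its slide term fits that array exactly. Of the double-deleted arrays, DN2 and DN3 alone therefore inform the values with slide. It called 587 features (2.17%), 450 higher (1.66%) and 137 lower (0.507%). In both fits and in the same direction, 357 features (1.32%) were higher and 109 (0.403%) lower, and 5 were called in opposite directions. The difference of the first fit is given below with its standard error, and for many genes the value with slide as a term beside it. The 3 Ezh2-deleted arrays, which enter both fits, alone had Xist on and the Y-linked transcripts Ddx3y, Eif2s3y and Uty at background, so Xist and the Y-linked transcripts were not read from the second fit. Other X-linked genes, Rps6ka6, Bex1 and Bex2 among them, were read from it, and the part of this difference in their values and in those of other genes was not tested.

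The labelled cell type matched the arrays. Ptprc (CD45), Cd3e, Cd3g, Lck, Tcf7, Gata3 and Il7r were well above background on all 6 arrays. Il2ra, which encodes CD25, was 2.42, 6.35 and 6.48 at DN1, DN2 and DN3 on the double-deleted arrays and 0.71, 5.19 and 5.21 on the p53-deleted arrays. Both genotypes thus had little Il2ra at DN1 and much at DN2 and DN3, as the gates require. Cd44 was 2.50, 1.41 and -0.80 on the double-deleted arrays and 2.66, 3.47 and -2.06 on the p53-deleted arrays, lowest at DN3 in each. One array stood apart. The p53-deleted DN2 array had 35 of 42 natural killer (NK) and innate lymphoid genes well above background, against 25 on the double-deleted, 21 on the wild-type and 26 on the Ezh2-deleted DN2 array. The summed level of these 42 genes did not set it apart, at 323 times the 75th percentile against 247, 187 and 633 on those DN2 arrays. The summed level of 20 gamma delta and type 17 T cell genes on the p53-deleted DN2 array was 256, against 59.6, 47.9 and 118 on the same arrays. The p53-deleted DN1 array had the lowest such sum of the 4 DN1 arrays, 79.8 against 168 to 359. Results that this array carries are therefore also given without it.

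Of the deleted genes, Trp53 showed the deletion and Ezh2 did not. Trp53 was -0.02, 0.87 and 1.12 in wild-type cells at DN1, DN2 and DN3 and 0.45, 1.48 and 1.04 in Ezh2-deleted cells. In p53-deleted cells it read -3.70, -5.57 and -5.01, never well above background. The double-deleted arrays read -4.03, -2.59 and -0.67. All 6 arrays with p53 deletion lay below the 6 with intact p53, and within the double-deleted genotype the level was lowest at DN1 and highest at DN3. The double-deleted mean was at least 2.31-fold above the p53-deleted one (adjusted p = 0.0423 in the limma fit), and the fit with slide gave 1.72 (adjusted p = 0.141). The call for Trp53 was lost without the DN2 or DN3 array of either genotype (adjusted p up to 0.162), and with normexp correction its difference was -0.06. Ezh2 was 3.66, 4.13 and 3.83 in double-deleted and 3.41, 3.14 and 3.67 in p53-deleted cells, a difference of 0.47 ± 0.39 (SE; adjusted p = 0.39). Its single probe read 2.55, 3.69 and 3.52 in cells labelled as Ezh2-deleted and between 2.23 and 4.26 in wild-type cells, so it checks nothing about the deletion. Cdkn2a was high wherever p53 was lost. It was 6.36, 6.18 and 6.41 in p53-deleted, 5.29, 5.24 and 4.60 in double-deleted, 0.87, 2.54 and 2.24 in Ezh2-deleted and -3.17, -5.44 and -3.61 in wild-type cells. The double-deleted arrays lay below the p53-deleted ones at each stage, by 1.27 ± 0.62 log2 units, and this did not pass the test (adjusted p = 0.146; 0.0362 with the 6 arrays alone). With slide as a term the value for Cdkn2a had the opposite sign, 2.28 (adjusted p = 0.0668).

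Genes that came on with Ezh2 loss whether or not p53 was present formed the clearest group. On all 3 arrays of both Ezh2-deleted genotypes, and on none of the 6 arrays with intact Ezh2, 26 features were well above background, and all 26 were higher in both fits. The 24 with a gene name held receptors (Fzd2 of the WNT pathway, Bmpr1a of the BMP pathway, Neo1), kinases (Rps6ka6, Map3k9, Ripk4) and adhesion and junction proteins (Pkp2, Dchs1), all named here after their values were seen. Because this group was set by which arrays showed a signal, its count of calls is a description. Of these, Rps6ka6, a ribosomal S6 kinase, had the largest difference. It read 0.00, 1.05 and 0.67 in double-deleted and -1.19, 0.96 and 0.94 in Ezh2-deleted cells, against -5.81, -5.87 and -5.45 in p53-deleted and -5.77, -5.40 and -5.75 in wild-type cells. The arrays with and without Ezh2 did not overlap. Double-deleted cells were at least 18.5-fold above p53-deleted cells (adjusted p = 1.54e-05), and the fit with slide gave 6.09 (adjusted p = 0.00043).

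The genes with the largest differences in both fits were mostly of this kind. Mpped2, a metallophosphoesterase, read 1.85, 0.92 and 0.79 in double-deleted and -5.82, -4.80 and -5.40 in p53-deleted cells, at least 28.2-fold apart (adjusted p = 3.56e-05), and 5.40 with slide. It was as high in Ezh2-deleted cells, from 0.73 to 1.45. Yap1, the transcriptional coactivator that the Hippo pathway restrains, read 2.11, 2.70 and 3.22 in double-deleted and -3.50, -3.78 and -2.01 in p53-deleted cells. The difference was 5.77 ± 0.52 (adjusted p = 9.41e-05), and it was 5.70 with slide (adjusted p = 0.000814). Ezh2-deleted cells lay between 0.85 and 2.95, above every wild-type array (-5.85 to -1.91). Enah, an actin regulator at the leading edge of moving cells, read -0.59, 0.08 and 0.14 against -5.91, -5.98 and -5.56, at least 11.4-fold (adjusted p = 3.66e-05), and Neo1, a receptor for netrins and repulsive guidance molecules, read -0.34, -0.12 and -0.30 against -5.72, -5.72 and -5.32, at least 10.4-fold (adjusted p = 3.46e-06). Both were intermediate in Ezh2-deleted cells (Enah -2.73 to -0.33, Neo1 -1.77 to -1.25). Another Enah probe gave 2.19. Gstm5, a glutathione transferase, was at least 13.9-fold higher (adjusted p = 0.000174) and Fam171a1 at least 16.4-fold (adjusted p = 4.12e-05). Tenm4, a teneurin that joins cells, differed by 5.28 ± 0.88 (adjusted p = 0.00281) with 1 probe and by 0.44 with another. Rab38, a small GTPase of lysosome-related organelles, differed by 5.67 ± 0.78 (adjusted p = 0.00104), but it was also high in wild-type cells at DN2 (3.50), so it was the p53-deleted arrays that lay apart.

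**Figure D1:**
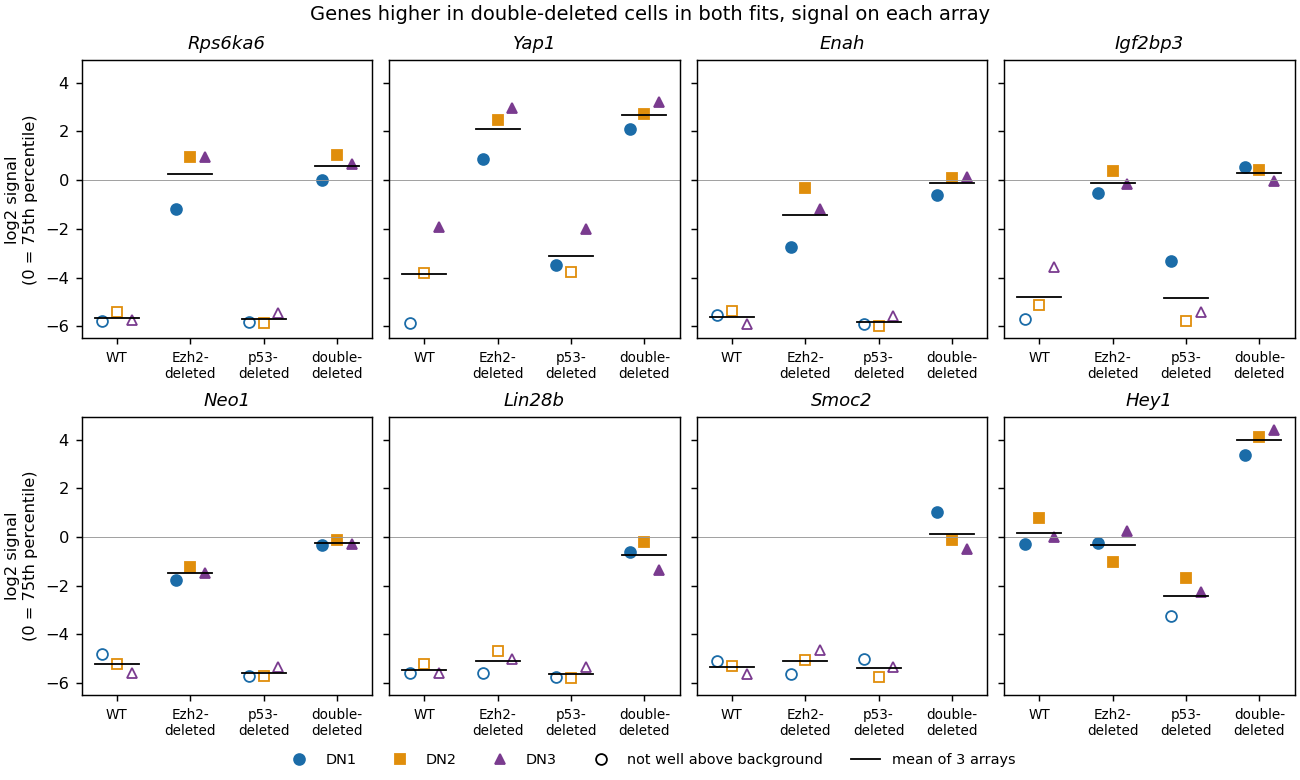
Level of 8 genes that were higher in double-deleted cells in both fits (Rps6ka6, Yap1, Enah, Igf2bp3, Neo1, Lin28b, Smoc2 and Hey1) on each of the 12 non-leukemic arrays (y axis, log2 signal with 0 at the array's 75th percentile; x axis, genotype; 1 symbol per stage, open where not well above background; line, mean of 3 arrays). Rps6ka6, Yap1, Enah, Igf2bp3 and Neo1 were high in both genotypes without Ezh2, Lin28b and Smoc2 on the double-deleted arrays alone, and Hey1 was lowest on the p53-deleted arrays and highest on the double-deleted arrays.

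The RefSeq sequence before the start of 5 genes is shown because they stand for the patterns described: Yap1 and Enah, on in both Ezh2-deleted genotypes, Lin28b and Hoxc4, highest in double-deleted cells, and Hoxa7, low in p53-deleted cells. Each run is the 250 bases upstream of the annotated start on the gene's own strand (GRCm38.p6), with CG dinucleotides, the sites of DNA methylation and a mark of CpG islands, in capitals.
Yap1 (chr9:8004597-8004846, minus strand): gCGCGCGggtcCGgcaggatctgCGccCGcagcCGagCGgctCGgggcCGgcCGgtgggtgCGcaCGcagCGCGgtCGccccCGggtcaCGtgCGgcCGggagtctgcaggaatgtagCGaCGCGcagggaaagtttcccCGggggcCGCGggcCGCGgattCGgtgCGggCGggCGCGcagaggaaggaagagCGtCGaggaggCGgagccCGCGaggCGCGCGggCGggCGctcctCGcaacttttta
Enah (chr1:182019981-182020230, minus strand): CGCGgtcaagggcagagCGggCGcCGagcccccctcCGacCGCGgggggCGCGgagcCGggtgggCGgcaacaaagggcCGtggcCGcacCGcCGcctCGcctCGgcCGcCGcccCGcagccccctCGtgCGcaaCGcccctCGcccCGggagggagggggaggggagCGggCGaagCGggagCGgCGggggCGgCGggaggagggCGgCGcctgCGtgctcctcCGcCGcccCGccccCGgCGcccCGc
Lin28b (chr10:45470202-45470451, minus strand): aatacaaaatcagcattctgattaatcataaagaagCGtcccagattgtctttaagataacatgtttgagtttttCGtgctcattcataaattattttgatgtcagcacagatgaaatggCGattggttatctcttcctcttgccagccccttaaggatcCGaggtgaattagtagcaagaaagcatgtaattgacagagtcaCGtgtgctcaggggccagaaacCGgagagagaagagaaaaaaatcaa
Hoxc4 (chr15:103034145-103034394, plus strand): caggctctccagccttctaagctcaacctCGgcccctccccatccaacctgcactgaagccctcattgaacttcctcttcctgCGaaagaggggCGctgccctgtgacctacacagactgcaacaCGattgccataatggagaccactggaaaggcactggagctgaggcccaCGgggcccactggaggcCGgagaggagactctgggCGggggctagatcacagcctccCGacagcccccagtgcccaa
Hoxa7 (chr6:52218574-52218823, minus strand): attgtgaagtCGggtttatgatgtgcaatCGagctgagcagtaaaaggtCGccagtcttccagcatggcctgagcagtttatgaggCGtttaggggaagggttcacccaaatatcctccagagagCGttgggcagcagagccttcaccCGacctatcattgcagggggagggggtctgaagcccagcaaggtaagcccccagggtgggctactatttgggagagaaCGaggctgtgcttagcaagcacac
The 5 differed widely in CpG content. The Yap1 window held 44 CG dinucleotides and the Enah window 42, as many as in 0.5% and 0.9% of 32851 promoter windows of that length. The windows of Hoxc4 (8), Hoxa7 (7) and Lin28b (6) were near the median of 6. CG reads the same on both strands, so each was counted once. Genes of both kinds were thus among those that differed, and these windows are a description of single genes.

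Another group was well above background on the double-deleted arrays alone. On all 3 double-deleted arrays and on none of the other 9 non-leukemic arrays, 158 features were well above background. Of these, 124 were higher in the first fit and 65 in both, a description, since the arrays that showed a signal set the group. Lin28b, the fetal RNA-binding protein that blocks let-7 microRNAs and marks fetal blood stem cells, belonged here. It read -0.62, -0.19 and -1.35 in double-deleted cells and -5.74, -5.77 and -5.34 in p53-deleted cells, with the wild-type arrays from -5.60 to -5.23 and the Ezh2-deleted arrays from -5.58 to -4.67. All 3 double-deleted arrays stood clear of the other 9, which were at background. Double-deleted cells were at least 7.52-fold above p53-deleted cells (adjusted p = 1.19e-05); the fit with slide gave 2.55 (adjusted p = 0.00283). Smoc2, a matricellular protein known as a marker of intestinal stem cells, read 1.01, -0.13 and -0.50 against -5.01, -5.75 and -5.34, at least 13.5-fold (adjusted p = 2.75e-05). Smoc2 too was at background on all 6 wild-type and Ezh2-deleted arrays. Evc2, a hedgehog pathway protein of the primary cilium, was at least 8.99-fold higher, Nudt11 at least 8.13-fold, Pgap4 at least 8.09-fold and Plscr2 at least 5.82-fold, with adjusted p between 6.43e-06 and 0.000391. Hoxa11os, the antisense transcript of Hoxa11, was at least 22.2-fold higher (adjusted p = 0.000449); strand is set by the probe's design, which was not checked here. These genes were called in both fits, as the rule that named them required.

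Hey1, a transcriptional repressor induced by Notch, was highest in double-deleted cells and lowest in p53-deleted cells. It read 3.38, 4.12 and 4.41 against -3.26, -1.70 and -2.27, and between -1.04 and 0.79 in wild-type and Ezh2-deleted cells. The 3 levels did not overlap, and the double-deleted arrays exceeded the wild-type arrays at each stage. The difference from p53-deleted cells was 6.38 ± 0.43 (adjusted p = 1.6e-05), and 2.98 with slide (adjusted p = 0.00622). It was the single gene of 18 Notch receptors and targets called in both fits.

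Hox genes, the homeobox factors that set position along the body axis and are the best known Polycomb targets, were higher in double-deleted cells. Of 20 Hox genes tested, 14 were higher (70%, against 16.0% of all features) and 2 lower in the first fit, with a median difference of 2.74 and of 1.06 when genes at background are set to their limit, against -0.12 over all features; with normexp background correction 4 were higher and 7 lower and the median was -0.17. Of 39 Hox genes listed, these 20 had a probe past the filter on low signal. On none of the p53-deleted arrays were 15 of the 20 well above background, so most passed the filter through other arrays. The share called higher is therefore a description. The 2 Hox genes well above background on all 6 arrays had 0 calls and a median of 0.49. The fit with slide called 9 higher and 0 lower, and 12 and 1 at an unadjusted p under 0.05. Hoxa7 read 1.58, 1.89 and 2.55 in double-deleted and -4.19, -2.17 and -2.46 in p53-deleted cells, a difference of 4.94 ± 0.36 (adjusted p = 2.37e-05) and of 1.70 with slide (adjusted p = 0.00875). Wild-type cells read 0.71, 3.03 and 2.45, so the double-deleted arrays were at the wild-type level (difference -0.06) and the p53-deleted arrays below it at each stage. Hoxc4 read 0.28, -0.45 and -1.60 in double-deleted cells and -5.96, -6.05 and -5.47 in p53-deleted cells, at least 8.25-fold (adjusted p = 4.17e-05). For Hoxc4, wild-type (-4.04 to -3.19) and Ezh2-deleted cells (-3.73 to -3.04) lay between, and the double-deleted arrays lay above all others. Hoxb13, a gene of the posterior trunk, read -0.18, -1.38 and -1.90 in double-deleted cells and between -5.74 and -4.96 on the other 9 arrays, at least 5.59-fold (adjusted p = 9.6e-05). Of the posterior genes Hoxa10, Hoxa11 and Hoxc9, also called in both fits and named after their values were seen, each was highest at DN1 and lowest at DN3 within the double-deleted arrays, for example Hoxc9 at -0.09, -0.84 and -2.80; with normexp correction Hoxa10 changed sign (-0.14). Hoxb6 and Hoxc12 were lower, at least 1.46-fold and 1.55-fold, with the double-deleted arrays at background and the fit with slide at -0.06 and -0.66 (adjusted p = 0.932 and 0.319). The call for Hoxc12 was lost without the p53-deleted DN1 or DN2 or the double-deleted DN2 or DN3 array (adjusted p up to 0.0718).

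**Figure D2:**
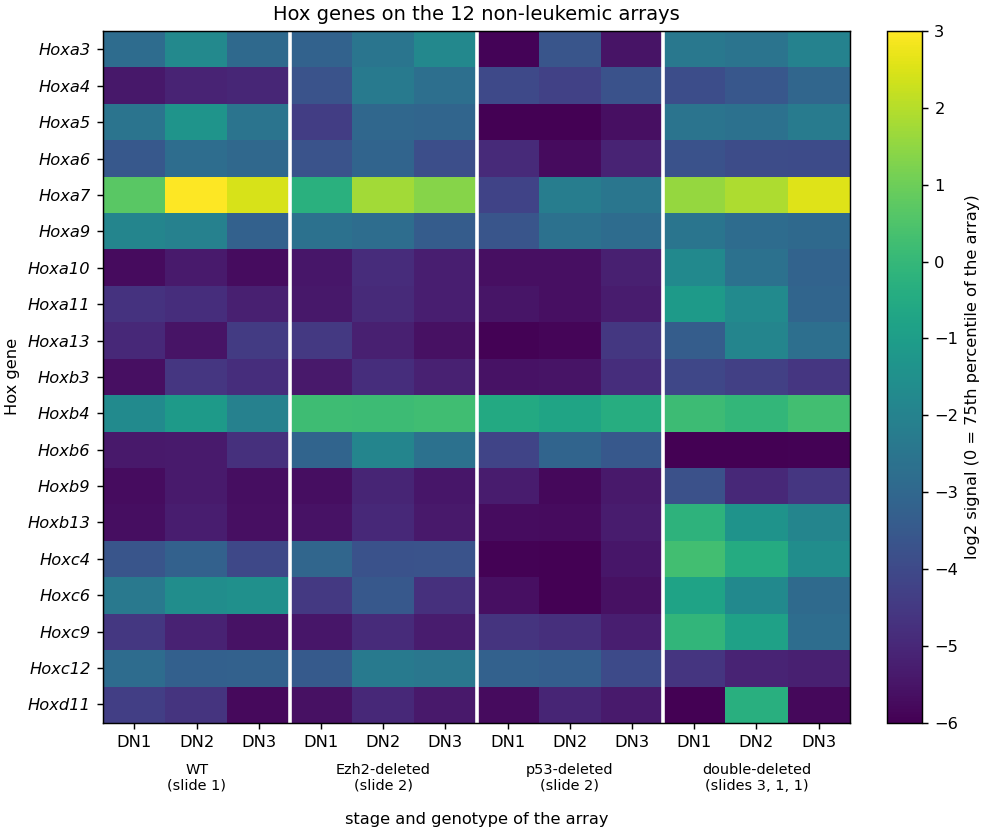
Level of the Hox genes reported here (y axis) on the 12 non-leukemic arrays (x axis, by genotype and stage with the slide of each), as colour on a log2 scale with 0 at the array's 75th percentile. Hoxb13, Hoxc4 and Hoxc9 are brightest on the double-deleted arrays, and Hoxa7 is dark in p53-deleted cells alone.

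Other parts of the fetal program that LIN28 is known for moved in part. Of 13 such genes tested, 8 were higher (61.5%, against 16.0% of all features) and 0 lower, with a median of 1.72. With normexp correction the median was 0.26, and the 9 genes well above background on all 6 arrays had a median of -0.06. The count of higher genes was 3 to 5 without the p53-deleted DN1 or DN2 or the double-deleted DN2 or DN3 array. Igf2bp3, a fetal RNA-binding protein and textbook let-7 target, read 0.56, 0.42 and -0.04 in double-deleted cells and -3.31, -5.79 and -5.40 in p53-deleted cells (difference 5.15 ± 0.72, adjusted p = 0.00112; 4.87 with slide, adjusted p = 0.00683). It was as high in Ezh2-deleted cells, at -0.54, 0.39 and -0.16, where Lin28b was at background. The imprinted growth factor Igf2 read -1.77, 1.45 and 1.79 against -4.79, -5.38 and -1.49 (4.38 ± 1.11, adjusted p = 0.0177), and the imprinted zinc finger gene Plagl1 read 2.22, 4.15 and 5.46 against -1.74, 0.63 and 2.85 (3.36 ± 0.86, adjusted p = 0.0182). Igf2 and Plagl1 did not pass with slide (1.73, adjusted p = 0.316, and 1.93, adjusted p = 0.226), nor without the p53-deleted DN1 or DN2 or the double-deleted DN2 or DN3 array (adjusted p up to 0.0814 and 0.0713). Hmga2, the chromatin protein most often named with Lin28b, read -2.83, -3.69 and -3.82 against -3.33, -3.39 and -2.95, a difference of -0.23 ± 0.36 (adjusted p = 0.654; named after its values were seen).

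Bex1, a small X-linked adaptor protein known from neurons, was lowest in wild-type and highest in double-deleted cells. It read -3.11, -2.93 and -2.24 in wild-type, 3.09, 2.79 and 4.02 in p53-deleted, 1.92, 4.50 and 4.74 in Ezh2-deleted and 6.31, 6.75 and 6.60 in double-deleted cells. No wild-type array reached any other, and no other array reached a double-deleted one. The wild-type arrays lay on slide 1 and both single-deleted genotypes on slide 2, so genotype and slide cannot be told apart between them. Double-deleted cells exceeded p53-deleted cells by 3.26 ± 0.52 (adjusted p = 0.00227), and the value with slide was 4.73 (adjusted p = 0.00189). That value for an X-linked gene also rests on the Ezh2-deleted arrays, which alone had Xist on, and the part of this was not tested. Bex2 followed the same order against p53-deleted cells, 2.74, 3.23 and 3.26 against -0.04, -0.53 and 0.89 (2.97 ± 0.37, adjusted p = 0.000643; 4.07 with slide, adjusted p = 0.000996), but Ezh2-deleted cells (2.09 to 3.75) overlapped the double-deleted ones. Ncam1, the neural cell adhesion molecule CD56, read 2.86, 3.31 and 2.48 against -0.35, 0.35 and 1.15 (2.50 ± 0.38, adjusted p = 0.00171; named after its values were seen). Bex1, Bex2 and Ncam1 were the ones called in both fits among 26 Bex and neuronal genes tested. Of the 26, 9 were higher (34.6%) and 1 lower (3.85%), against 16.0% and 15.3% of all features, with a median of 1.55 (0.67 with limits). With normexp correction the median was -0.01, and the 12 genes well above background on all 6 arrays had a median of 1.24. Elavl4, a neuronal RNA-binding protein, was at least 13.2-fold higher (adjusted p = 9.65e-06), yet wild-type cells (0.53 to 0.59) matched the double-deleted ones (-0.07 to 0.22) and both genotypes of slide 2 were at background. Its value with slide was -0.24 (adjusted p = 0.599).

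Among 31 other developmental transcription factors tested of 88 listed, 10 were higher (32.3%) and 3 lower (9.68%), against 16.0% and 15.3% of all features. Their median was 0.73 (0.24 with limits, -0.72 with normexp correction and -0.03 with slide). Of the 31, 16 were well above background on no p53-deleted array, and the 5 well above it on all 6 arrays had a median of 0.56. Snai2, a driver of epithelial-mesenchymal transition, read -2.77, -3.23 and -3.22 against -5.86, -5.87 and -5.45, at least 1.47-fold (adjusted p = 0.000229; 1.76 with slide, adjusted p = 0.00797). Meis2, also called higher in both fits and named after its values were seen, was at background at DN1 (-5.63) and on at DN2 (-1.89) and DN3 (-1.56); its call was lost without the DN2 or DN3 array of either genotype (adjusted p up to 0.14). With normexp correction Snai2 (-0.45), Meis2 (-0.28), Pax3 (-0.06) and Tbx15 (-0.33) changed sign. Pax3 and Tbx15 were at least 2.76-fold and 1.39-fold higher (adjusted p = 0.0028 and 0.00492) without passing with slide (adjusted p = 0.531 and 0.179). The listed factors that were not tested had no probe past the filter on low signal.

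Of 29 stem and progenitor genes tested, 10 were higher (34.5%) and 2 lower (6.9%), against 16.0% and 15.3% of all features. Their median was 1.11 (1.01 with limits). With normexp correction 8 were higher and 5 lower and the median was 0.23, the 15 genes well above background on all 6 arrays had a median of 0.26, and without the double-deleted DN3 array 6 were higher. Prom1 (CD133) was the one called higher in both fits, at -0.80, 0.09 and -0.50 in double-deleted and -5.87, -5.89 and -2.07 in p53-deleted cells (4.21 ± 0.88, adjusted p = 0.00777; 4.10 with slide, adjusted p = 0.0273). Ezh2-deleted cells were high as well (-2.26, 0.23 and -1.02). Gata2, a factor of blood stem cells and mast cells, was at least 9.2-fold higher and Lmo1, a T-ALL oncogene, at least 10.2-fold (adjusted p = 0.00893 and 0.000989), and neither passed with slide (adjusted p = 0.0772 and 0.0509). Cd34 differed by 4.30 ± 1.34 with 1 probe (adjusted p = 0.0384) and by -1.24 with another, so its direction is uncertain, and 5 of the 6 arrays, left out in turn, ended its call (adjusted p up to 0.136). Ly6a (Sca-1), a stem cell and interferon-induced antigen, was lower by 1.41 ± 0.25 log2 units (adjusted p = 0.00352; 0.10 with slide, adjusted p = 0.85).

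**Figure D3:**
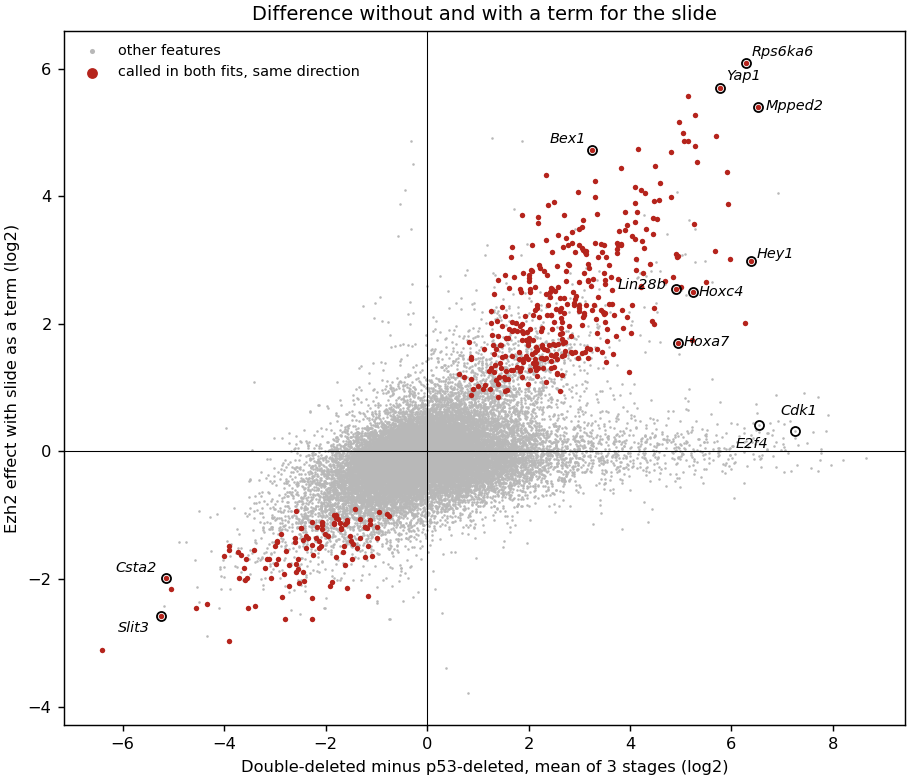
Each point is 1 feature tested: the x axis is the difference of double-deleted minus p53-deleted cells and the y axis the Ezh2 effect with slide as a term, both in log2 units; features called in both fits and in the same direction are red, and ringed genes are labelled. Mpped2, Rps6ka6 and Yap1 lie high on both axes, Lin28b, Hoxc4 and Hoxa7 lie lower on the y axis, and Cdk1 and E2f4 lie far along the x axis but near 0 on the y axis.

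The largest differences of the first fit alone were another kind. Of the 12 genes with the highest differences, Mpped2, Hey1 and Rps6ka6 were called in both fits and 9 were not. Cdk1, the mitotic kinase, read 2.39, 3.29 and 2.66 in double-deleted and -4.26, -5.20 and -3.98 in p53-deleted cells, at least 85.2-fold (adjusted p = 5.01e-05). The same probe read 0.30 to 2.73 in wild-type and -5.84 to -3.53 in Ezh2-deleted cells, its value with slide was 0.32, and other Cdk1 probes ranged from -0.79 to 4.22. Slide 2 therefore lay apart from the other slides, and the Cdk1 probes disagreed in direction. E2f4, Ppp5c, Eprs, Ndufaf8, Slc25a22, Gtse1 and BC048507 showed the same arrangement, all 6 arrays of slide 2 low and the other 6 high, with BC048507 differing by 6.88 ± 0.31 and the rest by at least 19.1-fold to 66.9-fold, and with values between -0.25 and 0.75 in the fit with slide. E2f4, for example, read 0.18, 0.97 and 1.28 in double-deleted and -0.30, 0.50 and 1.34 in wild-type cells, and -5.89 to -4.71 on slide 2. S100a9, a neutrophil calprotectin subunit, read 1.38, 1.02 and 0.60 in double-deleted cells and was at background in p53-deleted cells, at least 24.8-fold (adjusted p = 0.00762). It was also high on the Ezh2-deleted and wild-type DN1 arrays (2.18 and 0.10), and its value with slide was 4.05 (adjusted p = 0.106). In all, 688 features were well above background on each array of slides 1 and 3 and on none of slide 2. Of these, 593 were called higher and 0 in both fits, again a description of a group set by which arrays showed a signal. Hes1, a Notch target, belonged to the genes low on most of slide 2: -0.06, 0.94 and 2.35 in double-deleted and 0.32, 3.12 and 3.15 in wild-type cells against -5.58, -4.52 and -4.38 in p53-deleted and -5.38, -3.07 and -1.83 in Ezh2-deleted cells, at least 26.1-fold (adjusted p = 3.28e-05; 0.04 with slide, adjusted p = 0.97).

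Of the 109 features that were lower in double-deleted cells in both fits, 27 had a gene name, among them Slit3, Csta2, Twist2, H60b, Capsl and Rec8. A few were on in p53-deleted cells alone: 38 features were well above background on all 3 p53-deleted arrays and on none of the other 9, and 9 of these were lower in both fits. All 38 were called lower in the first fit, a description, since the arrays that showed a signal set the group. Slit3, a secreted guidance ligand for Robo receptors, read -0.97, -1.72 and 0.12 in p53-deleted cells against -6.16, -6.11 and -6.05 in double-deleted cells, with wild-type and Ezh2-deleted cells from -5.56 to -4.95. It was on with p53 loss alone and at background in the other genotypes, at least 9.68-fold lower in double-deleted cells (adjusted p = 3.22e-05; -2.58 with slide, adjusted p = 0.00879). Csta2, a cystatin-family protease inhibitor, read 0.35, 0.77 and -1.06 in p53-deleted and -4.90, -5.50 and -4.96 in double-deleted cells, at least 17.8-fold (adjusted p = 7.59e-05). Twist2, a mesenchymal transcription factor, read -1.70, -1.59 and -2.19 against -4.20, -4.31 and -6.44, at least 4.93-fold (adjusted p = 0.000989). H60b, a ligand of the activating receptor NKG2D, read -0.81, -0.45 and -1.57 against -4.44, -6.04 and -5.99, at least 9.12-fold (adjusted p = 0.000845), and it was also on at DN1 in wild-type cells (-1.92). Capsl read 0.50, 0.56 and 1.55 in p53-deleted cells against -2.34, -2.59 and -3.29 in double-deleted cells (-3.61 ± 0.35, adjusted p = 0.00013), where it was at the level of wild-type cells. Rec8, a meiotic cohesin subunit, was below every other genotype in double-deleted cells. It read -0.63, -1.17 and 0.07, against 3.91, 2.53 and 3.57 in p53-deleted cells, 0.76 to 2.64 in wild-type and 1.89 to 3.02 in Ezh2-deleted cells (-3.91 ± 0.27, adjusted p = 1.63e-05; -1.48 with slide, adjusted p = 0.0121). DXBay18 was lower by 3.08 ± 0.42 (adjusted p = 0.000961). Cass4 was lower by 3.19 ± 0.58 with 1 probe (adjusted p = 0.00413) and another probe gave 0.80. Lgals7, a galectin of stratified epithelia read 1.93, 1.02 and 3.35 in p53-deleted and -2.93, -3.28 and -3.07 in double-deleted cells (-5.19 ± 0.69, adjusted p = 0.000866), and it missed the threshold with slide (-2.42, adjusted p = 0.0803).

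**Figure D4:**
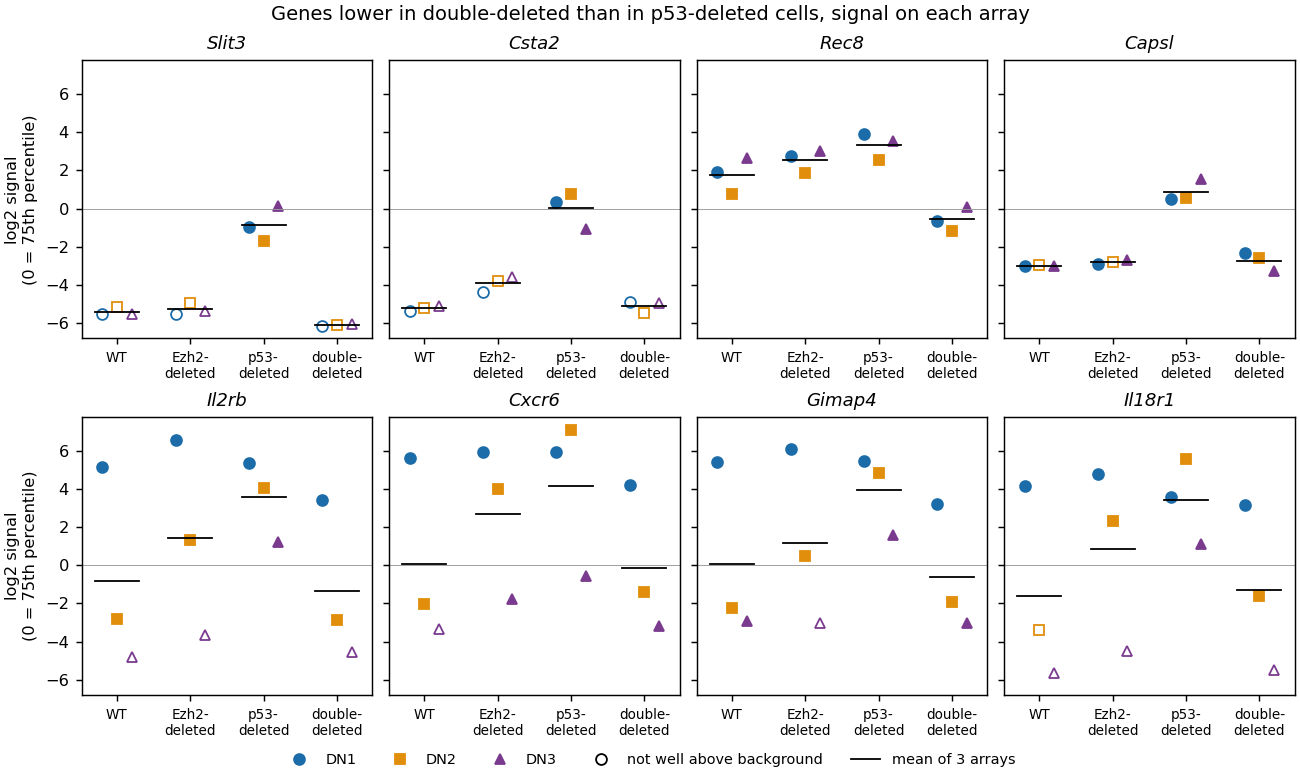
Level of 8 genes that were lower in double-deleted than in p53-deleted cells on each of the 12 non-leukemic arrays (y axis, log2 signal with 0 at the array's 75th percentile; x axis, genotype; 1 symbol per stage, open where not well above background; line, mean of 3 arrays). Slit3, Csta2 and Capsl are highest on the p53-deleted arrays, Rec8 is lowest on the double-deleted arrays, and Il2rb, Il18r1, Cxcr6 and Gimap4 are high on all DN1 arrays and, among DN2 arrays, highest on the p53-deleted one.

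Of the other genes among the 12 lowest in the first fit, Il2rb, Il18r1, Cxcr6, Gimap4, Il2 and Penk had their largest gap at DN2, where the p53-deleted array stood out. In bulk RNA, fewer cells of a type and less RNA per cell cannot be told apart. Il2rb, the IL-2 and IL-15 receptor β chain, read 5.40, 4.08 and 1.22 in p53-deleted and 3.42, -2.88 and -4.54 in double-deleted cells (-4.90 ± 1.18, adjusted p = 0.0142; -1.42 with slide, adjusted p = 0.525). It was high at DN1 in every genotype (3.42 to 6.57), and the genotypes parted at DN2 and DN3. Il18r1 read 3.60, 5.61 and 1.11 against 3.16, -1.60 and -5.47 (-4.75 ± 1.56, adjusted p = 0.0462), and the chemokine receptor Cxcr6 5.96, 7.13 and -0.58 against 4.24, -1.41 and -3.17 (-4.28 ± 1.41, adjusted p = 0.0472). The lymphocyte GTPase Gimap4, the cytokine Il2 and the opioid precursor Penk were arranged alike, with their largest gap at DN2 (Il2 3.02 against -6.36, Penk 1.90 against -6.14, Gimap4 4.84 against -1.94). Pcsk1, a prohormone convertase, and Mapk12, a p38 kinase, completed the 12 lowest genes (-4.49 ± 0.90, adjusted p = 0.00658, and -4.08 ± 0.78, adjusted p = 0.00522). Pcsk1 and Mapk12 kept their calls without any 1 of the 6 arrays, which does not separate genotype from slide. Neither passed in the limma fit with slide (-0.93, adjusted p = 0.544, and -1.84, adjusted p = 0.216). Il2rb, Il18r1, Cxcr6, Gimap4, Il2 and Penk each lost theirs without at least 3 of the 6 in turn, the p53-deleted DN2 array among them except for Il2, with adjusted p up to 0.0652, 0.164, 0.182, 0.0663, 0.142 and 0.106. Of 42 NK and innate lymphoid genes, 7 were lower (16.7%, near the 15.3% of all features) and 1 higher with a median of -0.96; without the p53-deleted DN2 array 1 was lower and 1 higher with a median of -0.57, without the double-deleted DN1 or DN2 array 0 were lower, and the fit with slide called 0 (1 at an unadjusted p under 0.05). Klrb1c (NK1.1), Xcl1, Klrd1 and Klrc1, NK receptors and a chemokine, differed by -3.52 ± 1.11, -3.24 ± 0.87, -2.46 ± 0.75 and -2.35 ± 0.77 (adjusted p from 0.0224 to 0.0463), and each lost its call without the p53-deleted DN2, the double-deleted DN1 or the double-deleted DN2 array (adjusted p up to 0.156). At DN3 they were at background in both genotypes, except Xcl1 in p53-deleted cells (-2.85). Cd244a was the one NK gene called higher (3.06 ± 0.58, adjusted p = 0.00492; 0.24 with slide).

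Gamma delta and type 17 T cell genes went opposite ways at DN1 and DN2. The median difference over 20 genes tested was 1.86 at DN1, -3.51 at DN2 and -0.13 at DN3. Il17a, Il23r and Ccr6, named after their values were seen, show the arrangement. Il17a read -0.76, -6.45 and -6.43 in double-deleted and -5.27, -0.55 and -5.63 in p53-deleted cells, on at DN1 in the former and at DN2 in the latter. In wild-type cells (-0.88, -5.59 and -5.92) and Ezh2-deleted cells (-0.64, -4.29 and -5.70) it was on at DN1, as in double-deleted cells. Il23r followed the same arrangement, -0.78, -6.19 and -6.15 against -3.19, 1.19 and -5.39, and Ccr6 was highest at DN2 in p53-deleted cells (5.25 against -1.71). Over the stages 1 gene of the list was higher and 1 lower (5% each, against 16.0% and 15.3% of all features). They were 5830411N06Rik (2.63 ± 0.70, adjusted p = 0.0209, up to 0.0861 without 1 array) and Il18r1. Without the p53-deleted DN2 array 5 were higher and 0 lower, and without the p53-deleted DN1 array 0 were higher and 3 lower.

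Genes of T cell receptor signalling that were called were lower in double-deleted cells. Of 34 tested, 15 were lower (44.1%, against 15.3% of all features) and 0 higher with a median of -1.05; with slide as a term 3 were lower, with a median of -0.22. Without the double-deleted DN2 array 9 were lower, without the double-deleted DN3 array 10 and without the p53-deleted DN2 array 12. Cd3d, a CD3 chain of the receptor, read 5.60, 4.10 and 6.03 in double-deleted and 8.60, 7.96 and 8.61 in p53-deleted cells (-3.15 ± 0.48, adjusted p = 0.00178). Ezh2-deleted cells, on the same slide as the p53-deleted ones, were as high (7.63 to 9.08), wild-type cells lay between (4.65 to 7.72), and the value with slide was -0.82 (adjusted p = 0.369). Cd5, an inhibitory receptor set by the strength of the signal, read 5.10, 3.34 and 2.61 against 6.69, 5.80 and 5.52 (-2.32 ± 0.32, adjusted p = 0.00115; -0.80 with slide, adjusted p = 0.205). The 3 genes called in both fits were co-receptors and a co-stimulator. Cd8b1 read 0.35, -1.38 and -0.90 against 1.99, 0.93 and 0.80 (-1.88 ± 0.37, adjusted p = 0.00575; -2.04 with slide, adjusted p = 0.0159). Cd4 read 1.99, 1.92 and 1.90 against 3.71, 3.12 and 2.68 (-1.23 ± 0.23, adjusted p = 0.00429; -1.18 with slide, adjusted p = 0.0142). Cd28, named after its values were seen, read 4.61, 3.24 and 3.39 against 6.03, 4.80 and 4.97 (-1.52 ± 0.24, adjusted p = 0.00195; -1.32 with slide, adjusted p = 0.0167). For all 3, both Ezh2-deleted genotypes lay below the genotypes with intact Ezh2 at the same stage. Cd4, Cd8b1, Endou and Themis were among the 6 of 24 double-positive thymocyte genes that were lower (25%, against 15.3% of all features). Of the 24, 0 were higher (1 at an unadjusted p under 0.05). Without the p53-deleted DN2, the double-deleted DN2 or the double-deleted DN3 array 3 of the 24 were lower, and the median went from -0.78 to -0.28 without the first of these. Themis lost its call without any 1 of 5 arrays (adjusted p up to 0.17). The summed level of those 24 genes was 580 to 701 times the 75th percentile on the double-deleted arrays, 1172 to 1491 on the p53-deleted and 519 to 896 on the wild-type arrays, and the part of more mature cells in these results was not tested.

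Transcription factors of the T lineage that were called were lower as well. Of 26 tested, 9 were lower (34.6%, against 15.3% of all features) and 0 higher with a median of -0.47; without the double-deleted DN2 array 4 were lower, without the double-deleted DN3 array 5 and without the p53-deleted DN2 array 6, and with slide as a term 0 were called (3 in all at an unadjusted p under 0.05). Tox, Id3, Ets1 and Nfatc1, which act in commitment and selection, were lower by 1.66 ± 0.32, 1.56 ± 0.30, 1.47 ± 0.30 and 1.47 ± 0.34 log2 units (adjusted p from 0.00531 to 0.0117; values with slide from -0.37 to 0.04), and Nfatc1 did not pass without the double-deleted DN2 array (adjusted p = 0.0614). Tcf7 and Gata3, the first T lineage factors, differed by -0.35 ± 0.28 and -0.16 ± 0.33 (adjusted p = 0.368 and 0.739). Of 29 genes of the IL-7 receptor and JAK-STAT pathway, 5 were higher (17.2%) and 9 lower (31%), against 16.0% and 15.3% of all features. The lower ones were 1 without the p53-deleted DN2 or double-deleted DN2 array and 3 or 4 without the double-deleted DN1 or DN3 or the p53-deleted DN3 array, and the higher ones 2 without the double-deleted DN3 array and 3 without the double-deleted DN1 or p53-deleted DN3 array. Il7r itself read 3.93, 2.81 and 2.48 against 4.86, 6.27 and 3.93 (-1.95 ± 0.55, adjusted p = 0.0276), and the highest of these levels was the p53-deleted DN2 array; its call was lost without any 1 of 5 arrays, all but the p53-deleted DN1 array (adjusted p up to 0.111). For Socs2 it was lost without the p53-deleted DN2 or double-deleted DN3 array (adjusted p up to 0.0619). The feedback inhibitors Cish and Socs2, STAT5 targets, were higher by 2.32 ± 0.51 and 2.05 ± 0.49 (adjusted p = 0.00966 and 0.0139; 0.88 and 1.60 with slide, adjusted p = 0.331 and 0.0953). For Cish the double-deleted arrays (3.66 to 4.34) were above all other 9 arrays (0.65 to 2.82), and so they were for Socs2 at each stage. Of 18 Notch genes, 4 were higher (22.2%) and 1 lower (5.56%), against 16.0% and 15.3% of all features, with a median of -0.18. Besides Hey1 and Hes1, the higher ones were Notch3 (2.41 ± 0.48, adjusted p = 0.00623; 1.55 with slide, adjusted p = 0.0768) and Il2ra (1.38 ± 0.43, adjusted p = 0.0381), and Myc was lower by 0.91 ± 0.28 (adjusted p = 0.0345). Il2ra and Myc did not pass without 4 and 5 of the 6 arrays in turn (adjusted p up to 0.148 and 0.115).

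Interferon response genes had the largest share of lower calls among the lists. Of 34 tested, 22 were lower (64.7%, against 15.3% of all features) and 0 higher with a median of -1.17. Without the double-deleted DN2 array 14 were lower. The median was negative at each stage (-1.23, -1.60 and -0.76). Rsad2 (viperin) read -0.23, -1.50 and -0.88 in double-deleted and 1.61, 0.96 and 0.52 in p53-deleted cells (-1.90 ± 0.26, adjusted p = 0.00101). Oas1a, a sensor of double-stranded RNA, read 3.93, 2.86 and 2.88 against 5.70, 4.65 and 4.87 (-1.85 ± 0.32, adjusted p = 0.00311). Ezh2-deleted cells of slide 2 were at the p53-deleted level (Rsad2 0.58 to 1.84, Oas1a 4.21 to 5.42), and wild-type cells of slide 1 nearer the double-deleted one (Rsad2 -0.76 to -0.18, Oas1a 1.67 to 3.75). With slide as a term 1 gene was lower and 0 higher, and the median was 0.10. That gene was Xaf1, a pro-apoptotic partner of XIAP named after its values were seen, which was lower by 1.17 ± 0.27 (adjusted p = 0.0124; 0.0662 without the double-deleted DN2 array) and had its lowest level in Ezh2-deleted cells (-0.99 to -0.62). For the rest of this list, genotype and slide cannot be told apart.

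**Figure D5:**
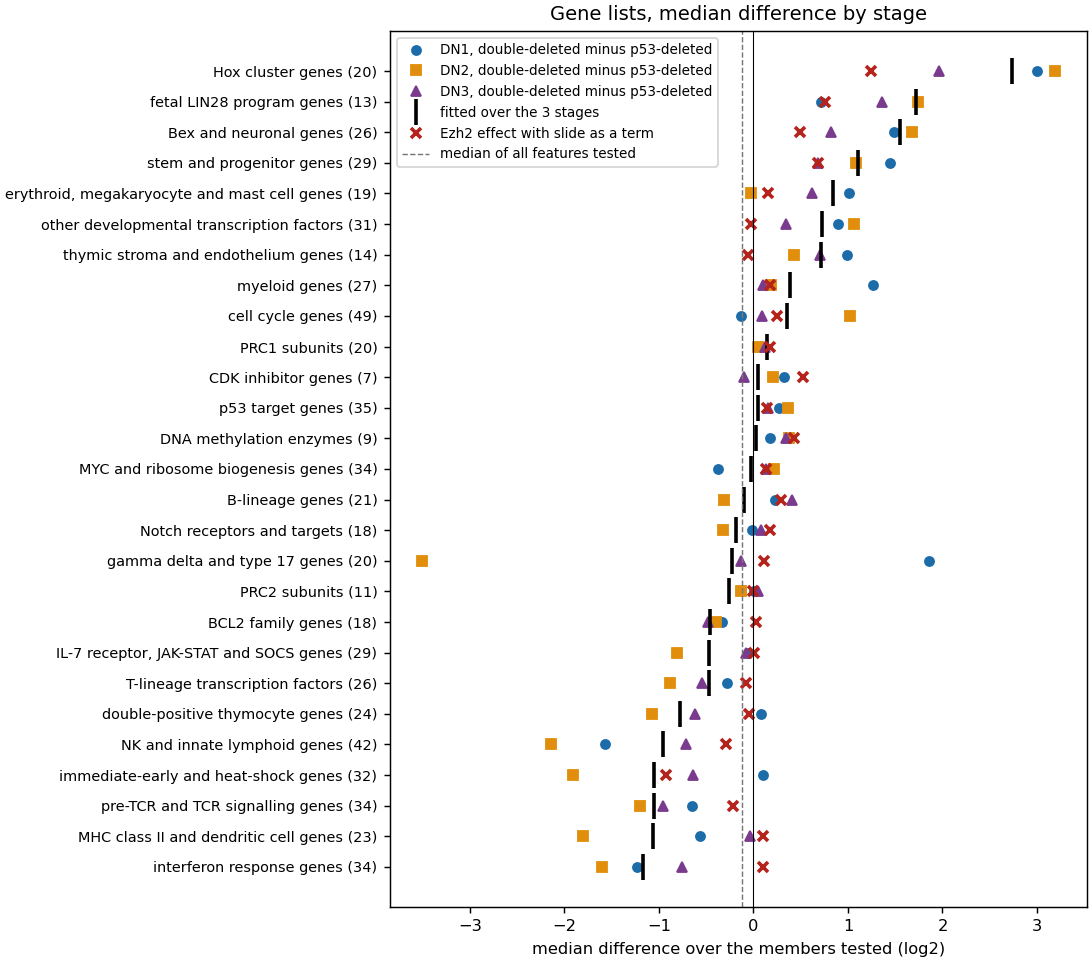
Median log2 difference over the tested members of each gene list (x axis; number of members in brackets on the y axis) at DN1, DN2 and DN3 (circles, squares and triangles), fitted over the 3 stages (black bars) and with slide as a term (red crosses); the dashed line is the median of all features, -0.12. Hox genes and the fetal LIN28 program lie above 0 in both fits, the interferon list moves from -1.17 to 0.10 with slide as a term, and the gamma delta list lies at 1.86 at DN1 and -3.51 at DN2.

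Genes of the deleted pathways themselves can be read against the 16.0% of all features called higher and the 15.3% called lower. Of 11 PRC2 subunits 1 was lower (9.09%), Jarid2 (-0.92 ± 0.22, adjusted p = 0.0146; -0.14 with slide), and 0 were higher. Of 20 PRC1 subunits 6 were higher (30%) and 1 lower (5%). Bmi1, a ring-finger subunit that represses Cdkn2a, read 3.90, 3.87 and 3.59 in double-deleted and 2.12, 1.94 and 1.64 in p53-deleted cells (1.89 ± 0.29, adjusted p = 0.002; 1.45 with slide, adjusted p = 0.0214), the one subunit called in both fits. Wild-type cells (1.63 to 2.41) lay below the Ezh2-deleted ones (2.68 to 3.51) for Bmi1, and these below the double-deleted ones. Of 35 p53 target genes 6 were higher (17.1%, near the share of all features) and 0 lower (4 without the p53-deleted DN1 array), and the median was 0.05. Phlda3, an AKT inhibitor and the one target called in both fits, differed by 1.43 ± 0.35 (adjusted p = 0.0159; named after its values were seen), with the call lost without any 1 of 4 arrays (adjusted p up to 0.0586). Perp, a desmosomal p53 target, read 2.39, 0.96 and 0.22 against -2.07, -1.69 and -1.47 (2.94 ± 0.62, adjusted p = 0.00827; 2.40 with slide, adjusted p = 0.0544). Of 7 CDK inhibitor genes 0 were called by limma, with 2 at an unadjusted p under 0.05; Cdkn1a (p21) differed by 0.82 ± 0.32 (adjusted p = 0.0813). Of 49 cell cycle genes 4 were higher (8.16%) and 1 lower (2.04%), with a median of 0.35. That median was -0.07 without the p53-deleted DN2 array and 0.75 without the p53-deleted DN1 array. Mcm2 and Kif23 were higher by 1.54 ± 0.45 and 1.67 ± 0.35 (adjusted p = 0.03 and 0.0079) and Ccnd1 lower by 2.39 ± 0.56 (adjusted p = 0.013). Also among the higher ones was Cdk1, described above as low on slide 2. With slide as a term 0 of the 49 were called (Mcm2 0.58, Kif23 0.34 and Ccnd1 -1.93). Of 34 MYC and ribosome biogenesis genes 2 were higher (Mycn 2.17 ± 0.48, adjusted p = 0.01, and Utp20) and 1 lower (Myc), and without the p53-deleted DN1 array 6 were higher. In the BCL2 family, Bcl2l14 was higher and Bcl2l12 and Bcl2l13 were lower out of 18, and of 9 DNA methylation enzymes Tet1 was higher (0.75 ± 0.21, adjusted p = 0.0273) and Tet3 lower (-1.58 ± 0.23, adjusted p = 0.00145), though another Tet3 probe gave 0.61. Of 32 immediate-early and heat-shock genes, Jun, Jund and Ier2 were lower by 1.48 ± 0.39, 1.11 ± 0.35 and 1.98 ± 0.44 (adjusted p = 0.0196, 0.0429 and 0.00996) and 1 was higher. Without the p53-deleted DN1 array 11 of the 32 were lower. Without the p53-deleted DN2 array 1 was lower and 3 higher, and the median went from -1.05 to -0.20. Without the double-deleted DN1 or DN2 array 1 was lower. Of the genes named in this paragraph, Jarid2, Mcm2, Ccnd1, Utp20, Myc, Bcl2l12, Bcl2l13, Bcl2l14, Tet1, Jun and Jund lost their call when 1 array was left out, each for at least 2 of the 6 arrays, with the highest adjusted p at 0.17 (Jund).

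Markers of other cell types were mixed in direction, and not all of them were low. The summed level of the 42 NK and innate lymphoid genes at DN1 was 800 times the 75th percentile on the double-deleted array. It was 1235 on the p53-deleted, 1248 on the wild-type and 2581 on the Ezh2-deleted DN1 array. Their counts can be read against the 16.0% of all features called higher and the 15.3% called lower. Of 27 myeloid genes 6 were higher (22.2%, and 2 and 3 genes without the double-deleted DN2 and DN3 array) and 1 lower (3.7%). The neutrophil genes S100a8 and S100a9 were on at all 3 stages in double-deleted cells and at background in p53-deleted cells. S100a8 read -0.03, -0.31 and -1.35, at least 8.4-fold (adjusted p = 0.0142, and 0.0665 at most without the double-deleted DN2 or DN3 array). The summed level of the myeloid list was 234 to 241 times the 75th percentile on the double-deleted arrays, 179 to 259 on the p53-deleted and 301 to 481 on the wild-type arrays. Of 21 B-lineage genes 1 was higher (Cd22) and 1 lower (Pou2af1), 4.76% each. Of 23 MHC class II and dendritic cell genes 2 were higher (8.7%) and 3 lower (13%). The median of these 23 went from -1.06 to -0.14 without the p53-deleted DN2 array. Their summed level was 316 to 381 on the double-deleted, 283 to 461 on the p53-deleted and 536 to 564 on the wild-type arrays. Of 19 erythroid, megakaryocyte and mast cell genes 4 were higher (21.1%, and 1 gene without the double-deleted DN3 array) and 2 lower (10.5%). Mcpt8, a basophil protease, read 0.87, -1.56 and -1.11 in double-deleted cells and was at background in p53-deleted cells (at least 8.18-fold, adjusted p = 0.0133, and 0.0557 without the double-deleted DN3 array). Cd22 and Pou2af1 lost their calls without 4 and 5 of the 6 arrays in turn (adjusted p up to 0.0734 and 0.0952). Of 14 stroma and endothelium genes 5 were higher (35.7%) and 1 lower (7.14%). Krt18, a simple-epithelium keratin, read 2.61, 2.48 and 2.43 against -0.55, -0.95 and 0.82 (2.73 ± 0.43, adjusted p = 0.00207; 2.67 with slide, adjusted p = 0.00922), and Ezh2-deleted cells were as high (1.64 to 3.01). Col4a1, a basement membrane collagen, was well above background on the double-deleted arrays alone, at -3.28, -2.07 and -1.19. It was at least 2.74-fold higher (adjusted p = 0.0004 in the limma fit), and -0.01 with normexp correction. The list's summed level was 27 to 37.4 in double-deleted and 12.5 to 36.5 in p53-deleted cells, and the part of other cells in these results was not tested.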

How the data were processed

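Total RNA (20 ng per sample, per the labels' protocols) was labelled with Cy3 and hybridised to 1-colour Agilent arrays. Per the file headers, the authors' files hold intensity values from Feature Extraction 10.7.1.1, with the processed signal already background-subtracted. The array grid names mm9, and probes were named by matching the accession in the files to RefSeq transcripts (GRCm38.p6 table, used for names alone). Control spots and outlier spots were left out, spots of 1 probe were averaged (55681 probes, 27656 with 1 gene symbol and 28025 with none), and log2 of each array's 75th percentile was subtracted. Probes well above background on at least 2 of 14 arrays were kept (31499), less 187 probes missing on an array. Each gene was taken as its probe with the highest mean, and unnamed probes were kept singly. limma 3.58.1 in R 4.3.3 fitted genotype and stage on the 12 non-leukemic arrays (6 residual degrees of freedom), with the stage pairing the genotypes. The deposited value table, an intensity table scaled by the authors to a 75th percentile near 1 with the method not stated, served as an alternative. Both fits were tested on simulated data with independent noise and no slide effect. For the fit with slide, the simulated effect was equal in both Ezh2-deleted genotypes. That test cannot show how either fit behaves where genotype and slide coincide.

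The genes and lists were chosen with earlier results of these data known. Named genes were the 12 highest and 12 lowest called with 1 sign at all stages, Hoxa7, Lin28b, Hoxc4, Ezh2, Trp53 and Cdkn2a, and up to 4 called members of each list per direction (for a list with none called, 2 members with the largest difference). A further rule, added after the values were seen, named the 12 highest and 8 lowest called in both fits and the 8 highest on in double-deleted cells alone. Some genes that these rules name are not reported here. Of 1026 called genes with other tested probes, 192 had a probe of opposite direction by over 0.5, so directions of single genes rest on the probe named by its brightness. A comparison of promoter CpG content between gene sets was void, since 79.8% of the tested genes and 71.9% of those higher in both fits had a promoter window.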

Additional observations from a re-analysis of the deposited data

Results flagged for a closer look

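The median difference of the 20 gamma delta and type 17 genes between double-deleted and p53-deleted cells was 1.86 at DN1 and -3.51 at DN2, so the same contrast went opposite ways at adjacent stages. With 1 array per genotype and stage, this difference between stages was not tested. In the other genotypes the summed level of these genes was highest at DN1 (168 to 359 times the 75th percentile) and lower at DN2 (47.9 to 118), while the p53-deleted arrays had 79.8 at DN1 and 256 at DN2. Il2ra, the gene of the CD25 gate, kept the labelled order on the p53-deleted arrays (0.71 at DN1 and 5.19 at DN2).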

How the results depend on the processing

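With slide as a term, 587 features were called in place of 8446, 450 of them higher and 137 lower. That fit asks for the Ezh2 effect averaged over p53 status, and the double-deleted DN1 array adds nothing to it. With normexp correction 15904 features were called, 11971 of them lower. Where a probe had to be well above background on all 6 arrays, a setting chosen after seeing the data, 2462 were higher. Without 1 array at a time 4758 to 7668 features were called, 2927 to 4042 of them higher and 1831 to 3626 lower. With the 6 arrays alone, DN2 and DN3 alone, slide as a random block (correlation -0.112), the 75th percentile over detected probes, quantile normalization, the authors' deposited table, no filter, a filter of 3 of 6 arrays or the median over probes, each count stayed within 1.5 times the reported one. Stage, which carries the replicate number here, already pairs the genotypes, so no further paired fit was possible because a genotype has 1 array per stage. Of 135 genes named, 40 lost their call without at least 1 array. With slide as a term 64 lost it with their sign kept and 15 changed sign, of which 12 were called in at least 1 of both fits: BC048507 (-0.25), Bcl2l13 (0.28), Cd3e (0.20), Ddx3y (-3.40), Eif2s3y (-3.79), Elavl4 (-0.24), Ly6a (0.10), Nfatc1 (0.04), Oas1a (0.12), Slc25a22 (-0.12), Themis (0.05) and Xist (3.37); Cd3g (0.53), Cdkn2a (2.28) and Lck (0.13) were called in neither. With normexp correction 11 changed sign, 4 of them called in neither. Of the rest, Col4a1 (-0.01), Hoxa10 (-0.14), Meis2 (-0.28), Pax3 (-0.06), Snai2 (-0.45), Tbx15 (-0.33) and Trp53 (-0.06) were called in at least 1, and the cause was not tested. Another probe turned Cd34 (-1.24) and Cdk1 (-0.79) under the filter on all 6 arrays, and the median over probes turned Tet3 (0.11). Signals near background, more common on slide 2, limit weakly expressed genes.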

Other observations

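The 2 leukemic arrays (double-deleted early T cell precursor leukemia, CD44+CD25+ cells of 2 mice, on a slide of their own) entered no test. Some of the genes described above were on in both leukemias, some in neither and some in 1 of the 2. Lin28b was well above background on both (-1.80 and -1.34), near the non-leukemic double-deleted level. Igf2bp3 (-0.54 and -0.59), Hoxc4 (2.84 and 1.25), Hoxb13 (0.77 and -0.63), Enah (3.27 and 1.91), Neo1 (-0.06 and -0.79), Yap1 (0.44 and 2.02) and Bex1 (7.15 and 6.47) were well above background on both as well.

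Rps6ka6 (-5.25 and -5.29) and Mpped2 (-5.27 and -5.33), which were among the genes with the largest differences before leukemia, were at background on both leukemic arrays. Hoxa7 (-3.49 and 1.74), Smoc2 (-2.96 and 2.52) and Hey1 (0.25 and -2.48) differed between the 2 leukemias by more than they did between the stages of non-leukemic double-deleted cells. Evc2 (-0.94 and -5.48), Nudt11 (-1.19 and -5.29), Pgap4 (-1.92 and -5.22) and Plscr2 (-0.30 and -5.11) were well above background on the first leukemic array alone. Slit3, on in p53-deleted cells alone, was at background on both leukemic arrays (-5.78 and -5.07), and Cdkn2a was 6.53 and 7.06.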
